A study of Mus musculus with 4 samples.

Results

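Lymphatic endothelial genes were followed across mouse embryonic tissue with and without Tbx1. The members are 7 genes, Prox1, Lyve1, Flt4, Vegfc, Pdpn, Ccbe1 and Reln, out of 22180 genes that the annotation names on the array. They were chosen by name, as lymphatic markers and genes of the VEGF-C pathway, and each was read by 1 transcript cluster (a set of probes along the exons of 1 transcript). RNA came from embryos on a mixed C57BL/6J x FVB/N background. It was read on 4 arrays (Affymetrix Mouse Gene 2.0 ST) with 1 sample each of head without Tbx1 (Tbx1 knockout) and wild-type head at embryonic day 12.5 (E12.5), and 1 each of knockout and wild-type palatal shelves from E13.5, the outgrowths of the upper jaw that fuse into the secondary palate. The labels name no allele, litter or number of embryos behind the knockout, and 1 of their fields calls the E13.5 samples heads where title, source and tissue name palatal shelves. All values are log2 expression, and a gene entered a comparison when at least 1 of the 2 arrays compared read 6.16 or more, which is the median of all named genes. Each group is a single array, so differences within a pair have no replicate check.

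Lymphatic vessels arise when venous endothelial cells switch on the transcription factor Prox1, which sets and keeps lymphatic identity. The secreted growth factor VEGF-C, from the gene Vegfc, draws these cells out of the vein through its receptor VEGFR-3, from the gene Flt4. VEGF-C is made as a precursor, and the secreted protein CCBE1, from the gene Ccbe1, helps the protease ADAMTS3 to activate it. Tbx1, a T-box transcription factor needed for the pharyngeal apparatus, is also made in lymphatic endothelium, and Flt4 has been reported as one of its targets there. Several of these genes are made by other cells of the head too. Prox1 is made in lens and in neurons, Lyve1 in macrophages, Pdpn in bone-forming cells, choroid plexus and epithelium, and Reln in the early cortical neurons called Cajal-Retzius cells.

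To show the gene reported as a Tbx1 target and the gene that differed most between the tissues, the 250 bases before the start of Flt4 and of Reln are printed here from the RefSeq promoter table of GRCm38.p6. Flt4 lies at chr11:49609429-49609678 on the plus strand and Reln at chr5:22344706-22344955 on the minus strand. Each runs 5′ to 3′ along its gene, and capitals mark CpG, a C followed by a G.
Flt4: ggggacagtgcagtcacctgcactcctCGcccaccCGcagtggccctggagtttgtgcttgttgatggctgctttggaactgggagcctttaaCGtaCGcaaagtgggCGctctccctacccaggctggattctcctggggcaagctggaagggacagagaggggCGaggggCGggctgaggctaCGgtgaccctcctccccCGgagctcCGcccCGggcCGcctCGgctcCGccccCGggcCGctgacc
Reln: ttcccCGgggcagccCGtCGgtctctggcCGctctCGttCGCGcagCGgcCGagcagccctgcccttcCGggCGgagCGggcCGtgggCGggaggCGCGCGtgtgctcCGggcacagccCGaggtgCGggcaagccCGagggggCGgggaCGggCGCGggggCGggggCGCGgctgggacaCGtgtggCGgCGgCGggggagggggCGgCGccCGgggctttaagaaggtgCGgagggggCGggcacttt
The Reln window held 37 CpG and was 80% G and C, and 2.2% of all 32851 promoter windows held as many CpG. The Flt4 window held 16 CpG and was 68.4% G and C, against medians of 6 CpG and 52.4% over all windows. The T-box half-site GGTGTGA, searched on both strands, was found in 3.33% of all windows and in 0 of the 6 windows of the 5 members in the table (Prox1 has a pair of starts, and Flt4, Vegfc, Pdpn and Reln 1 each). This says only that those letters are not in these windows.

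Of the 7 genes, 5 were read at or above 6.16 on all 4 arrays (Prox1, Lyve1, Flt4, Vegfc and Pdpn), Reln on both head arrays, and Ccbe1 on none. As a check of the label, other genes of lymphatic endothelium were read beside them. Mmrn1, the matrix protein multimerin-1, lay between 7.19 and 7.46 on the arrays, whereas Stab2, a hyaluronan scavenger receptor, and Nts, a neuropeptide of lymphatic endothelium, stayed below 6.16 on all 4. Of 11 measured genes on the list that holds Mmrn1, Stab2 and Nts, 6 entered for the head pair and 5 for the shelf pair. That list also holds genes of platelets and leukocytes (Clec1b, Syk, Lcp2 and Plcg2), of which Lcp2 alone entered. Its counts are therefore not of lymphatic endothelium only. All lymphatic pathway lists together had 40 of 50 measured genes entering for either pair. Blood vessel genes had 14 of 14 for the head pair and 13 of 14 for the shelf pair. Among all 22180 named genes, 11364 entered for the head pair and 11449 for the shelf pair. RNA came from whole tissue, in which fewer cells of a type and less RNA per cell cannot be told apart. Tbx1 itself was at 6.83 in wild-type and 6.25 in knockout head, and at 7.39 in wild-type and 6.18 in knockout shelves.

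**Figure D1:**
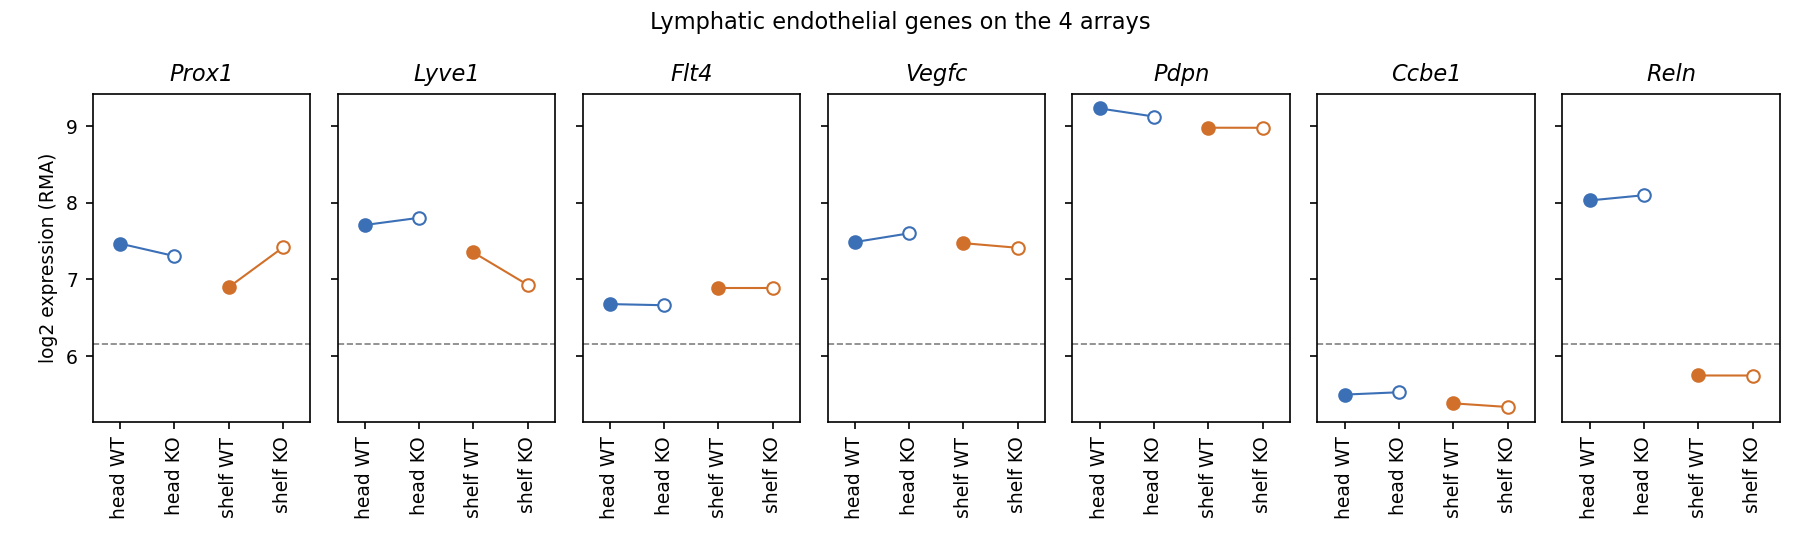
Log2 expression (RMA) of the 7 lymphatic endothelial genes, with 1 point per array, filled for wild type (WT) and open for Tbx1 knockout (KO), blue for E12.5 head and orange for E13.5 palatal shelves, and a dashed line at the limit for entry of 6.16. Prox1 is lowest in the wild-type shelves (6.90), Lyve1 in the knockout shelves (6.93), Reln is below the limit in both shelf arrays, and Ccbe1 is below it on every array.

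In the E12.5 head, the largest knockout minus wild-type difference among the members that entered was that of Prox1 (log2 -0.16). Of these 6, 3 had a difference above 0 and 3 below 0, up to 0.11 (Vegfc), with a median of 0.027 beside -0.017 over all 11364 genes that entered. None reached 2-fold, as did 0.088% of all genes, and none reached 1.5-fold, as did 0.458%. In the palatal shelves, Prox1 and Lyve1 stood on opposite sides of the wild-type level, with differences of 0.52 and -0.42. The other 3 members that entered there lay between -0.061 and 0. None of the 5 reached 2-fold, as did 0.935% of all 11449 genes that entered, or 1.5-fold, as did 3.25%. Their median was -0.00048, beside 0.021 over all genes.

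Prox1, the factor that specifies lymphatic endothelium, was at 7.47 in wild-type head, 7.31 in knockout head, 6.90 in wild-type shelves and 7.42 in knockout shelves. The wild-type shelf array was thus the low one, and the other 3 lay between 7.31 and 7.47. The knockout shelf level was 1.43-fold that of wild type, and 4.21% of the genes that entered in the shelves differed at least as far. In the head the knockout level was 1.12-fold lower, and 23.4% of genes differed at least as far. Other cells that make Prox1 had mixed levels in the same shelf pair. Of the 5 differentiating neuron genes that entered there, 4 were above 0 (Tubb3, the neuronal tubulin, at 0.58 and Dcx, a microtubule protein of migrating neurons, at 0.43) and the neurogenic factor Neurog1 was at -0.70. Neurog1 entered only through the wild-type shelf array, so it could only count as below 0. The neuron list summed to 11.18 in wild-type and 11.32 in knockout shelves (log2). Of 13 lens genes, 2 entered in the shelves, the crystallin genes Crybb1 (0.45) and Crybb3 (-0.15), and all lens genes summed to 9.41 in wild-type and 9.32 in knockout shelves. Their part in the Prox1 difference was not tested.

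Lyve1, the hyaluronan receptor of lymphatic endothelium, was at 7.71 in wild-type head, 7.80 in knockout head, 7.35 in wild-type shelves and 6.93 in knockout shelves. The knockout shelf array was the low one, 1.34-fold below wild type, and 6.84% of genes in the shelves differed at least as far. In the head the knockout was 1.07-fold above wild type, as far as or less far than 46.4% of genes. Macrophage genes were lower in the same shelf pair. Of 8 that entered, 7 were below 0 and 1 above, with a median of -0.30, where 55.2% of all genes were above 0. The 17 listed genes summed to 10.82 in wild-type and 10.51 in knockout shelves. Among them, Fcer1g, a signalling chain of Fc receptors, was at -0.76, the mannose receptor gene Mrc1 at -0.73, F13a1, a coagulation factor subunit made by tissue macrophages, at -0.45 and C1qb, a complement subunit, at -0.32, while Cd68, a lysosomal glycoprotein, was at 0.24. Of 17 listed macrophage genes the other 9 lay below the limit in both shelf arrays, the pan-leukocyte gene Ptprc and the scavenger receptor gene Cd163 among them. In the head the same list had 4 above and 4 below 0, with a median of -0.039. The part of macrophages in the Lyve1 difference was not tested.

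Of VEGF-C and its receptor, the receptor gene Flt4 was at 6.68 in wild-type head, 6.66 in knockout head and 6.89 in both shelf arrays. The knockout and wild-type shelf values were identical as deposited, as in 60 of all 41345 clusters, and the difference ran from -0.038 to 0.017 when the arrays were scaled in other ways. Vegfc was at 7.49 in wild-type head, 7.60 in knockout head, 7.47 in wild-type shelves and 7.41 in knockout shelves, so its 4 arrays spanned 0.19. Ccbe1 was at 5.50 and 5.53 in wild-type and knockout head and at 5.38 and 5.33 in wild-type and knockout shelves. These levels lie below the limit for entry, where RMA compresses folds; no difference is drawn from them.

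Pdpn, the mucin-type membrane glycoprotein that binds the platelet receptor CLEC-2, was at 9.23 in wild-type head, 9.13 in knockout head and 8.98 in both shelf arrays. The head difference was -0.11 and the shelf difference -0.00048, and the latter ran from -0.030 to 0.016 under the other scalings. Bone-forming and epithelial genes, which mark other cells that make Pdpn, were 4 above and 1 below 0, and 1 above and 6 below 0, in the shelf pair. Reln, a secreted glycoprotein that guides neurons and is also made by lymphatic endothelium, was at 8.03 in wild-type head, 8.10 in knockout head and 5.75 in both shelf arrays. Its head difference was 0.068, and none is drawn from the shelf levels, which lie below the limit for entry.

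The only test of genotype that the design allows is an additive limma fit over the 4 arrays, with tissue as a term and 1 residual degree of freedom. Its spread joins how far a gene's difference varied between the pairs with a common value estimated over all genes (SD 0.107, weighted as 5.49 degrees of freedom). No member passed, 0 of 6, as with 0% of all 11999 genes tested by limma. At an unadjusted limma p of 0.05, 0 of 6 members and 628 of all genes (5.23%) passed. Prox1 had a log2 difference of 0.18 (SE 0.17, 95% interval -0.22 to 0.58, limma adjusted p 0.983). For Lyve1 it was -0.17 (SE 0.14, interval -0.51 to 0.18, limma adjusted p 0.983). The interval of Flt4 ran from -0.25 to 0.23, that of Vegfc from -0.22 to 0.28, that of Pdpn from -0.30 to 0.19 and that of Reln from -0.21 to 0.27. A 2-fold genotype difference, 1 on this scale, lies outside all 6 intervals, while smaller ones lie inside them. For Reln the fit includes the shelf pair, at 5.75 in both arrays and below the limit for entry. Its interval therefore cannot show whether Reln differed in the shelves. For Prox1 and Lyve1, whose pairs point in opposite ways, the mean over the pairs describes neither. The shelf difference minus the head difference was 0.68 for Prox1 and -0.52 for Lyve1. With an interaction term no residual degree of freedom is left, so this was not tested.

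**Figure D2:**
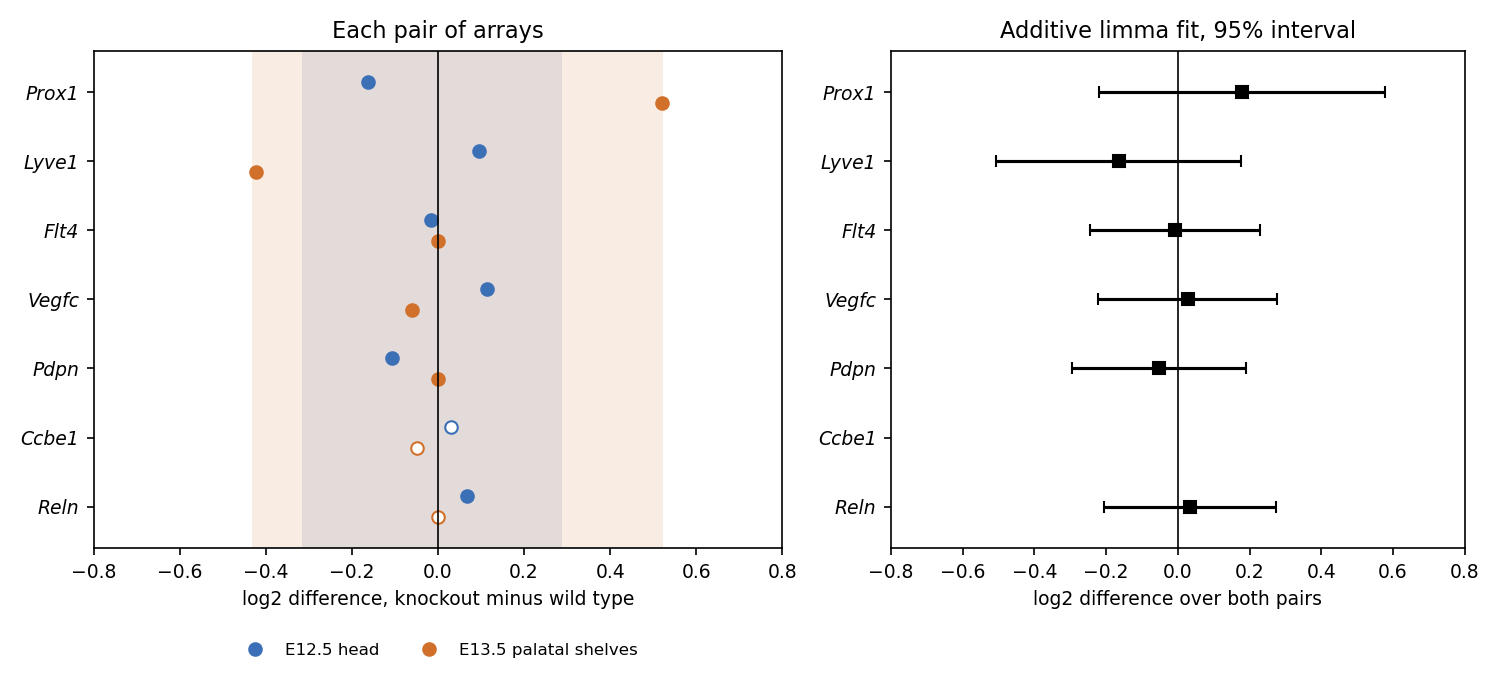
Left, log2 difference (knockout minus wild type) of the 7 lymphatic genes in the E12.5 head (blue) and the E13.5 palatal shelves (orange), open where neither array reached 6.16; bands span the central 95% of all genes that entered (-0.32 to 0.29 in the head, -0.43 to 0.52 in the shelves). Right, the difference over both pairs with its 95% interval from the additive limma fit, where every interval covers 0 and Ccbe1 was not tested.

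Other genes of the lymphatic pathway gave the setting. Of 53 on 4 lists, 50 were named on the array and 40 entered in each pair. None reached 2-fold in either pair, beside 0.088% of all genes in the head and 0.935% in the shelves. At 1.5-fold there were 0 in the head and 1 in the shelves, or 1 of 40 beside 3.25% of all genes. The 1 gene was Vegfd, which encodes VEGF-D, the other ligand of VEGFR-3. It was at 6.30 in wild-type head, 6.38 in knockout head, 6.52 in wild-type shelves and 7.34 in knockout shelves, so the knockout shelf array was the high one, 1.77-fold above wild type. In the head 22 of 40 pathway genes were above 0, with a median of 0.0099, and 44.5% of all genes were. Centring each array on its median gave 19 above 0, where the list's median turned to -0.0085, and quantile normalization again or cyclic loess gave 26. In the shelves 31 of 40 were above 0, with a median of 0.15, beside 55.2% of all genes and a median of 0.021, and the count was 26 to 31 under the 3 other scalings.

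Among the receptors and processing genes, 9 of 10 were above 0 in the shelves. After Vegfd came Kdr, which encodes the VEGF receptor VEGFR-2, at 0.49, and Adamts3, the protease that activates VEGF-C, at 0.35. Adamts3 was at 6.77 in wild-type and 7.04 in knockout head, and at 7.48 in wild-type and 7.84 in knockout shelves, above wild type in both pairs. In the additive fit Vegfd, Kdr and Adamts3 had unadjusted limma p-values of 0.0403, 0.0288 and 0.019, and none passed after adjustment. Nrp2, a co-receptor for VEGF-C, was at 0.15 in the shelves and -0.0014 in the head. Itga9, the integrin of lymphatic valves, was at 0.15 and 0.12.

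The transcription factors around Prox1 were 6 of 8 above 0 in the shelves, with a median of 0.23. Klf4, a flow-responsive factor that is also made in epithelium, was at 0.36, Nr2f2, the venous factor that acts with Prox1, at 0.33, Sox18, which switches Prox1 on, at 0.30, and Gata2, a factor of lymphatic valves, at -0.30. In the head the largest difference was that of the valve factor Nfatc1, at -0.24. Prox1, Sox18 and Nr2f2 were thus all higher in the knockout shelf array than in the wild type. Sox18 and Nr2f2 also lay above wild type in the head (0.12 and 0.089), where Prox1 was at -0.16. Of the 8 tested factors, 0 had an unadjusted limma p under 0.05 for genotype.

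In the angiopoietin, adrenomedullin and valve list, 13 of 17 genes were above 0 in the shelves and 9 of 16 in the head. Ptprb, the phosphatase that restrains the Tie2 receptor, was at 0.46 in the shelves, the Tie2 ligand gene Angpt1 at 0.32 and Tie1, the orphan partner of Tie2, at 0.31. In the head Emilin1, a matrix protein of lymphatic anchoring fibres, was at 0.32 and Tie1 at -0.27. Among surface and separation genes, S1pr1, a sphingolipid receptor of endothelium, was at 0.28 in the shelves and the platelet and leukocyte adaptor gene Lcp2 at -0.25. Mmrn1 was at -0.066 in the shelves and -0.052 in the head, and Stab1, a scavenger receptor shared with macrophages, at 0.031 and -0.012. The platelet receptor gene Clec1b lay below 6.16 on all arrays.

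Blood endothelial genes are the nearest group to set beside these. Of 13 that entered in the shelves, 12 were above 0, with a median of 0.20, and 10 were with quantile normalization again. In the head 11 of 14 were above 0, with a median of 0.094. Of all genes that entered, 55.2% were above 0 in the shelves and 44.5% in the head. Flt1, a VEGF receptor of blood vessels, was at 0.63 in the shelves, Esam, a junction protein, at 0.49 and Pecam1, an adhesion molecule of all endothelium, at 0.23. Esam entered only through the knockout shelf array, so it could only count as above 0. Genes induced by low oxygen were all above 0 in the shelves, 10 of 10, with a median of 0.75. They summed to 11.99 in wild-type and 12.68 in knockout shelves. Vegfa, the VEGF of blood vessels, was at 1.17 and the mitophagy receptor gene Bnip3 at 1.38. In the head 5 of 9 were above 0. The part of low-oxygen genes in the endothelial values was not tested. Skeletal muscle genes were below 0 in both pairs (12 of 12 in each). Their medians were -0.84 in the head and -1.29 in the shelves. Mylpf and Casq2 entered only through the wild-type array in both pairs, so they could only count as below 0. In the shelves the same held for Neb, Ttn, Actn2, Myog and Mymk. Sex-linked genes differed in the head pair, where Xist was at -1.06 and the Y-linked Uty at 1.39, and their part in the lymphatic values was not tested.

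**Figure D3:**
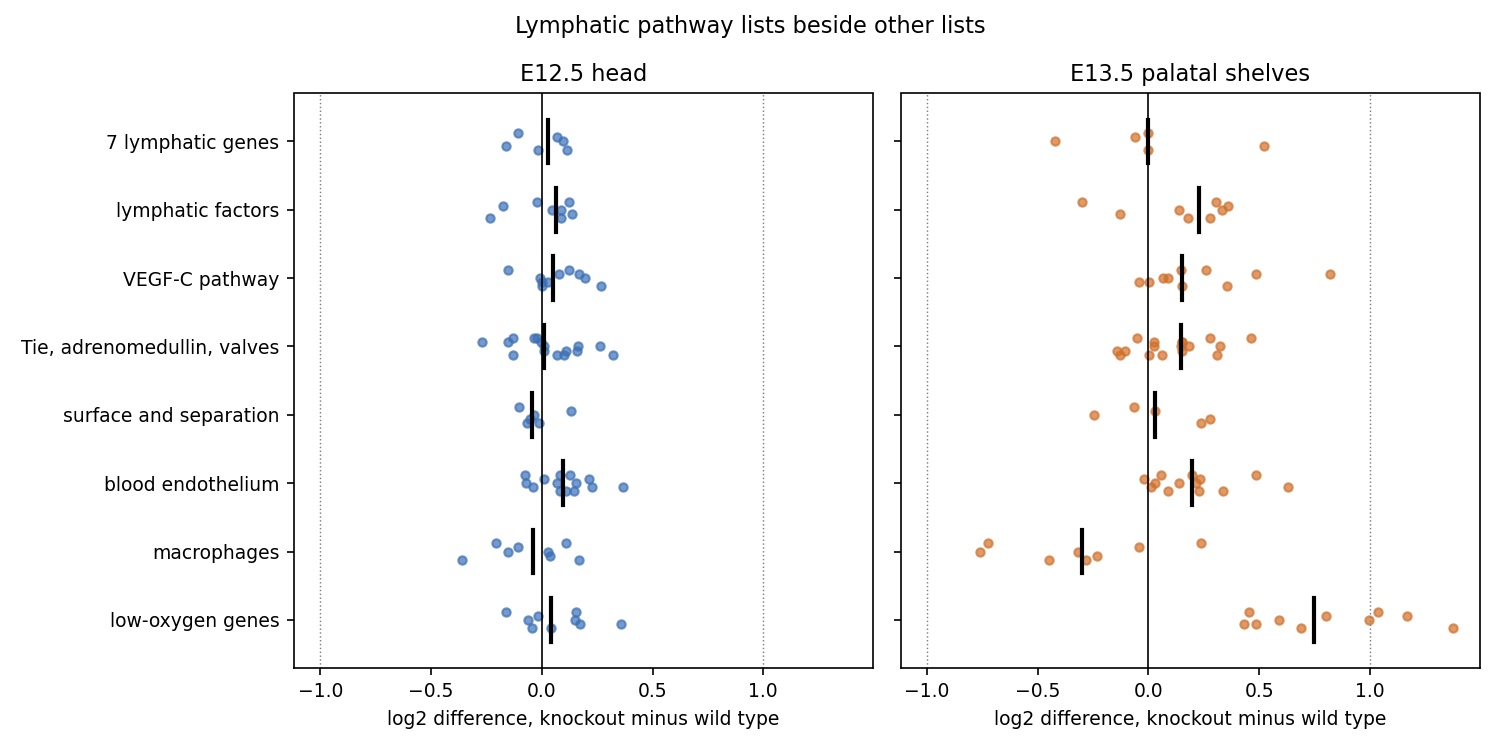
Log2 difference (knockout minus wild type) of the genes that entered, 1 point per gene, for the 7 lymphatic genes, 4 lymphatic pathway lists, blood endothelium, macrophages and low-oxygen genes, with a bar at each list's median and dotted lines at 2-fold. In the palatal shelves the lymphatic factors (0.23) and blood endothelium (0.20) have medians above 0, macrophages (-0.30) below it, and low-oxygen genes the highest of the lists drawn (0.75).

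Between the tissues, Reln set itself apart from the other members. In wild type it was 4.87-fold lower in the shelves than in the head, and in the knockout 5.11-fold lower. Since both shelf levels lie below the limit for entry, these folds may be compressed. The additive limma fit gave -2.32 (SE 0.0996, adjusted p 5.8e-05), and 141 of 11765 genes (1.2%) differed at least as far between the wild-type tissues. Neuronal genes were lower in the shelves too. Among the 8 Cajal-Retzius genes, Lhx5 was at -4.23, Lhx1 at -2.48 and Nhlh2 at -2.24. Tbr1, a factor of early cortical neurons, was at -3.17. On the other side, Trp73, a defining factor of these cells, was at 0.52, Calb2 at 0.56 and Ndnf at 0.83. All 9 differentiating neuron genes that entered were below 0, 8 of them at least 2-fold. Of all genes that entered, 45.5% were above 0 and 8.16% were at least 2-fold different either way. Neurod2, Neurog2, Dll1 and Eomes, like Reln, Lhx5, Lhx1 and Tbr1, entered only through the head, so they could only count as below 0. Trp73 and Calb2 entered only through the shelves, so they could only count as above 0. The summed Cajal-Retzius level was 11.48 in wild-type head and 10.38 in wild-type shelves, and its part in the Reln difference was not tested. Tissue and stage differ together here and cannot be told apart. Y-linked levels also differed between these wild-type arrays, with Uty 1.53, Kdm5d 1.14 and Eif2s3y 1.13 higher in the shelves (log2), and their part in the tissue values was not tested.

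Lyve1 was also lower in the shelves, by 1.28-fold between the wild-type arrays and 1.84-fold between the knockout arrays. The additive limma fit gave -0.62 (SE 0.14, adjusted p 0.0196). That call was lost with no filter on dim genes (limma adjusted p 0.0587) and with quantile normalization again (limma adjusted p 0.0561), and over all alternatives the limma adjusted p ran from 0.000256 to 0.0587. Reln and Lyve1 were 2 of 6 members lower in the shelves by this test, and none was higher. Reln entered only through the head arrays, so it could only count as lower, here and at 2-fold. Of all genes 14.9% were lower, 13% higher and 27.9% different in either direction. At 2-fold between the wild-type arrays, 1 of 6 members (Reln) was past the fold, as were 8.16% of all genes. Macrophage genes went both ways between the wild-type arrays, 4 of 8 above 0, and summed to 10.61 in the head and to 10.82 in the shelves.

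The other members did not pass the limma test between the tissues. Prox1 was 1.49-fold lower in wild-type shelves than in wild-type head, but 1.08-fold higher in knockout shelves than in knockout head. The fit gave -0.23 (95% interval -0.63 to 0.17, limma adjusted p 0.35). Flt4 was 1.16-fold higher in the wild-type shelves and 1.17-fold in the knockout shelves, with a fitted difference of 0.22 (interval -0.021 to 0.45, limma adjusted p 0.154). Pdpn was at -0.20 (interval -0.44 to 0.044, limma adjusted p 0.193). For Vegfc the fitted value was -0.10 (interval -0.35 to 0.15, limma adjusted p 0.515), and its wild-type difference of -0.014 ran from -0.071 to 0.028 over the other scalings. Osteoblast genes were higher in the wild-type shelves (5 of 5 above 0, 4 at least 2-fold) and oral epithelial genes too (7 of 7, 6 at least 2-fold). Of all genes that entered, 45.5% were above 0 and 8.16% were at least 2-fold different either way. Ibsp, Phex, Krt18 and Cdh1 lay below the limit in wild-type head and entered only through the shelves, so they could only count as above 0. Pdpn, which osteoblasts and epithelium can make, was 1.19-fold lower in the wild-type shelves. Choroid plexus can make it too, and the genes listed for it summed to 10.62 in wild-type head and 8.98 in wild-type shelves. Of the 3 that entered, Ttr was at -3.72, with Clic6 (0.52) and Aqp1 (0.88) above 0. The part of these cells in the Pdpn difference was not tested.

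Genes of the pathway lists also passed the test between the tissues, in both directions. Nr2f2 fell in the shelves (fitted -0.93, limma adjusted p 0.00138) and was the 1 pathway gene of 41 past 2-fold between the wild-type arrays, at -1.05, where 8.16% of all genes were. Sox18 (-0.48, limma adjusted p 0.0164) and Foxc2, a factor of lymphatic valves (-0.76, limma adjusted p 0.00224), fell too. Of the 8 factors tested, 4 fell and 1 rose, and of 10 receptor and processing genes 5 rose and 0 fell, where 14.9% of all genes fell and 13% rose. The difference between these lists was not tested. The genes that rose include Adamts3 (0.75, limma adjusted p 0.00231) and the protease gene Furin (0.60, limma adjusted p 0.00566). Of 17 angiopoietin, adrenomedullin and valve genes, 4 rose and 2 fell. Angpt1 rose by 1.08 (limma adjusted p 0.000744) and Calcrl, the adrenomedullin receptor, by 0.72 (limma adjusted p 0.00272). Angpt1 lay below the limit in both head arrays and entered only through the shelves, so it could only count as a rise. Vangl2, a planar polarity gene, fell by 0.78 (limma adjusted p 0.0023) and the gap junction gene Gja1 by 0.39 (limma adjusted p 0.0305).

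**Figure D4:**
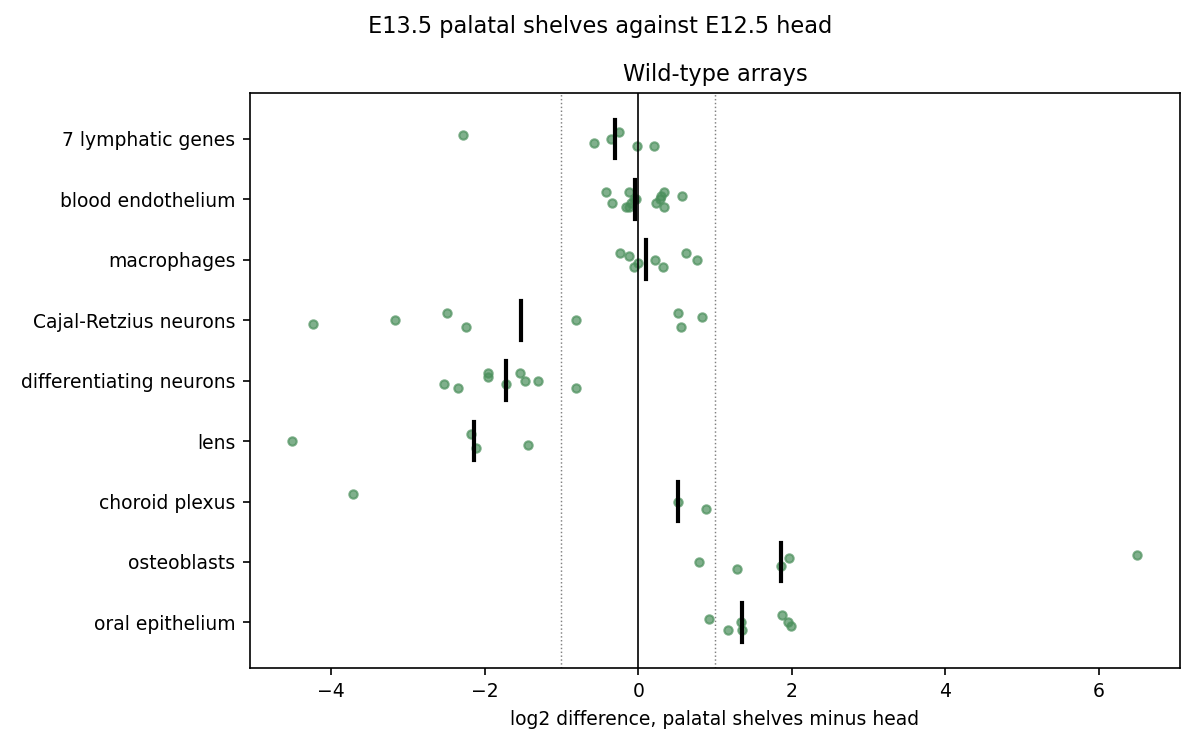
Log2 difference between the wild-type arrays (E13.5 palatal shelves minus E12.5 head) of the genes that entered, 1 point per gene, for the 7 lymphatic genes, blood endothelium, macrophages and cell types that also make a member, with a bar at each list's median and dotted lines at 2-fold. The 1 lymphatic gene past 2-fold is Reln (-2.29), on the side of the medians of the neuronal and lens lists. Reln entered only through the head. The osteoblast and epithelial lists lie above 0, as do 3 of 8 Cajal-Retzius genes. The lens median is -2.14 over the 4 of 13 genes that entered and -0.117 with no filter.

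The genes with the most similar pattern were found for the 3 members whose levels spanned at least 0.5. Likeness was the Euclidean distance between log2 levels centred on their mean over the 4 arrays, among 11234 genes. Nearest to Prox1 were Zfp708 (distance 0.0707), Inppl1 (0.0757) and Zswim3 (0.0924), which also were lowest in the wild-type shelves. Nearest to Lyve1 were Lrp2 (0.0634), Nlk (0.0887) and Mex3d (0.0922), lowest in the knockout shelves. Nearest to Reln were Pax6, a factor of eye and forebrain (0.174), the lens crystallin gene Cryaa (0.196) and Robo3, a receptor of crossing axons (0.208), all lower in both shelf arrays than in the head. With 4 arrays, many genes share a pattern, and the distances are a description.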

How the data were processed

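RNA of 4 samples was hybridised to 1 array each. The authors deposited log2 values, 1 per transcript cluster; the submitters' processing notes name RMA and Affymetrix Expression Console. Neither version nor build is given in the sources used. RMA sets arrays to 1 distribution, which takes out shifts common to most genes and compresses folds near background. Groups came from the sample titles. The platform annotation names 23521 of 41345 clusters with 1 symbol (1814 have several, 16010 none), and 23328 matched a RefSeq table of GRCm38.p6. Clusters of a gene were averaged.

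Differences were taken within pairs with no test. The additive limma fit (limma 3.58.1, R 4.3.3; lmFit, eBayes, Benjamini-Hochberg over 11999 genes) had genotype and tissue as terms. It was also run on simulated data, with equal changes in both tissues and noise drawn from the fit's own common spread. That run does not cover genes whose pairs point in opposite ways, nor spread between embryos. The p-values of the limma fit rest on how far a gene's difference varied between the pairs, joined with the common value over all genes. Each group has 1 array, so they measure no spread within a group. The number of arrays limits the precision. The members and gene lists were chosen with earlier results of these data known. The text names the 7 members, genes of the other lists at least 2-fold different (up to 6 per comparison), up to 4 of each list by size, further list genes by role, chosen after their values were seen, and the 3 nearest genes in pattern. Some listed genes were not analysed here. Alternatives were other scalings, the brightest cluster, other filters, 1.5-fold and 3-fold, and other variance models.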

Additional observations from a re-analysis of the deposited data

Results flagged for a closer look

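Prox1, Lyve1 and Vegfc had knockout minus wild-type log2 differences of opposite sign in the 2 tissues. For Prox1 the head value was -0.163 and the shelf value 0.521, for Lyve1 0.0942 and -0.424, and for Vegfc 0.114 and -0.0605. The difference between the tissues was not tested, since each rests on 1 pair of arrays. The disagreement between probe sets of 1 gene came to an SD per probe set of 0.177 in the head and 0.241 in the shelves. This is the SD between the 2 clusters of a gene divided by the square root of 2, over 286 genes with 2 bright clusters. That disagreement holds no spread between embryos, which these arrays do not give.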

How the results depend on the processing

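The alternatives here were centring, cyclic loess, quantile normalization again, use of the brightest cluster, and either filter a member passed. Each move was set against the SD per probe set of its own comparison. That SD was 0.177 in the head, 0.241 in the shelves and 0.432 between the wild-type tissues. Under these alternatives no member's difference, within a pair or between the wild-type tissues, moved by more than that SD. Of the lists, the choroid plexus, lens and oral epithelium medians did so between the wild-type tissues (-0.171 and -0.117 with no filter, and 1.87 with the brightest cluster or the upper-quartile filter). In the shelves Prox1 ran from 0.486 to 0.537 and Lyve1 from -0.478 to -0.407. Members past 2-fold stayed at 0 in both pairs and 1 between the tissues under all alternatives, 1.5-fold and 3-fold included. Counts over all genes moved by construction with the fold: 52 at 1.5-fold and 1 at 3-fold in the head (10 at 2-fold), 372 and 25 in the shelves (107), 2077 and 394 between the wild-type tissues (960). The upper-quartile filter (log2 7.79) left 5, 32 and 492, and no filter gave 19 in the head. Genes past an adjusted limma p of 0.05 for genotype were 0, but 11 with a mean-variance trend and 150 with 1 common variance, none of them a member. No member's fitted direction reversed. Members below the limit for entry, Ccbe1 on every array and Reln in the shelves, limit what signal over background allows. No paired analysis was possible because the labels give no replicate numbers and each group has 1 array.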
